A study of Mus musculus with 2 samples.

Results

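The 10 genes described here encode the nuclear lamina and the proteins that tie it to the cytoskeleton in mouse heart: the lamin genes Lmna, Lmnb1 and Lmnb2, the LEM domain genes Emd, Tmpo and Lemd2, the SUN genes Sun1 and Sun2, and the nesprin genes Syne1 and Syne2. They were chosen by symbol from the 55536 annotated genes of the series, and all 10 were found. The choice used no measured values as a criterion, but it was made with earlier results of these data known. Total RNA with ribosomal RNA reduced was sequenced from whole hearts of untreated male B6CASTF1/J mice of 2 months, first-generation crosses between the B6 and CAST strains supplied by The Jackson Laboratory. The study holds 1 group of 2 biological replicates with 1 library each, made from 300 ng of RNA. Their entry for the donor is the same, while the males are numbered apart, and they are treated here as 2 animals. No second condition was measured, so the values below are levels with their spread (SD, n = 2 libraries), ratios within a library, differences between the libraries and differences between the quantifications that the authors deposited. None of them carries a p-value.

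The lamina is a meshwork of intermediate filament proteins, the lamins, beneath the inner nuclear membrane. Integral proteins of that membrane hold it in place: LEM domain proteins bind the chromatin protein BAF, and SUN proteins reach into the space between the membranes. There they bind the KASH domain at the end of nesprins, which sit in the outer membrane and attach to actin, microtubule motors and centrosomal proteins, and the SUN and nesprin pair is called the LINC complex. In heart muscle it carries contractile force to the nucleus, and mutations of LMNA and EMD in people cause cardiomyopathy, conduction disease and muscular dystrophy.

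Annotated genes held 38963569 estimated counts in replicate 1 and 44321172 in replicate 2. All 8 cardiomyocyte markers were present in both libraries, with a summed level of 33403 and 36358 TPM, a level relative to all transcripts that is corrected for transcript length, and no defining marker of heart muscle was at 0. The 6 markers each of endothelial cells, fibroblasts, pericytes with smooth muscle, and macrophages all reached 1 TPM as well. None of the 12 markers of liver, lung epithelium and fast skeletal muscle or the 6 of proliferation did so in either library. Of 6 lymphocyte markers none reached 1 TPM in both libraries, and Cd79a (1.05 TPM) and Cd79b (1.74 TPM) reached it in replicate 1. The 6 red cell markers summed to 20348 TPM in replicate 1 and 6413 TPM in replicate 2, the 6 lymphocyte markers to 4.41 and 1.55 TPM, and each of these 12 was at least 2-fold higher in replicate 1, the lymphocyte markers on only 2 to 59 estimated counts. Of 6 adipocyte markers 4 reached 1 TPM in both libraries, and the 6 summed to 10.25 TPM in replicate 1 and 16.96 TPM in replicate 2. Of 6 Schwann cell markers 3 did so, with sums of 6.19 and 6.36 TPM. Pericyte and smooth muscle markers summed to 193 and 231 TPM. The part of blood RNA, or of other differences in tissue make-up, in the values below was not tested.

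All 10 genes reached 1 TPM in both libraries, as did 49.8% of the 22015 nuclear protein-coding genes, and 8 of them reached 10 TPM. Lmna led at 50.4 ± 3.61 TPM and was followed by Sun2 at 35.9 ± 1.59, Syne1 at 20.8 ± 0.410 and Sun1 at 18.9 ± 0.474. Tmpo stood at 15.9 ± 0.785, Emd at 14.0 ± 0.643, Syne2 at 12.4 ± 0.629 and Lemd2 at 11.8 ± 0.382. Both B-type lamins closed the order, with Lmnb1 at 1.89 ± 0.566 and Lmnb2 at 1.49 ± 0.134 TPM. The median of the detected protein-coding genes was 8.73 TPM, so 8 of the genes lay above it and the B-type lamins below. Neighbours in this order had library ranges that did not overlap, except Syne2 with Lemd2 and Lmnb1 with Lmnb2. The second quantification gave the same order but for 2 swaps, Sun1 above Syne1 and Lemd2 above Syne2. In it the ranges of Sun1 and Syne1 were apart, at 33.7 to 34.3 and 20.4 to 20.7 TPM, as were those of Lemd2 and Syne2, at 12.6 to 13.8 and 9.36 to 10.3 TPM.

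**Figure D1:**
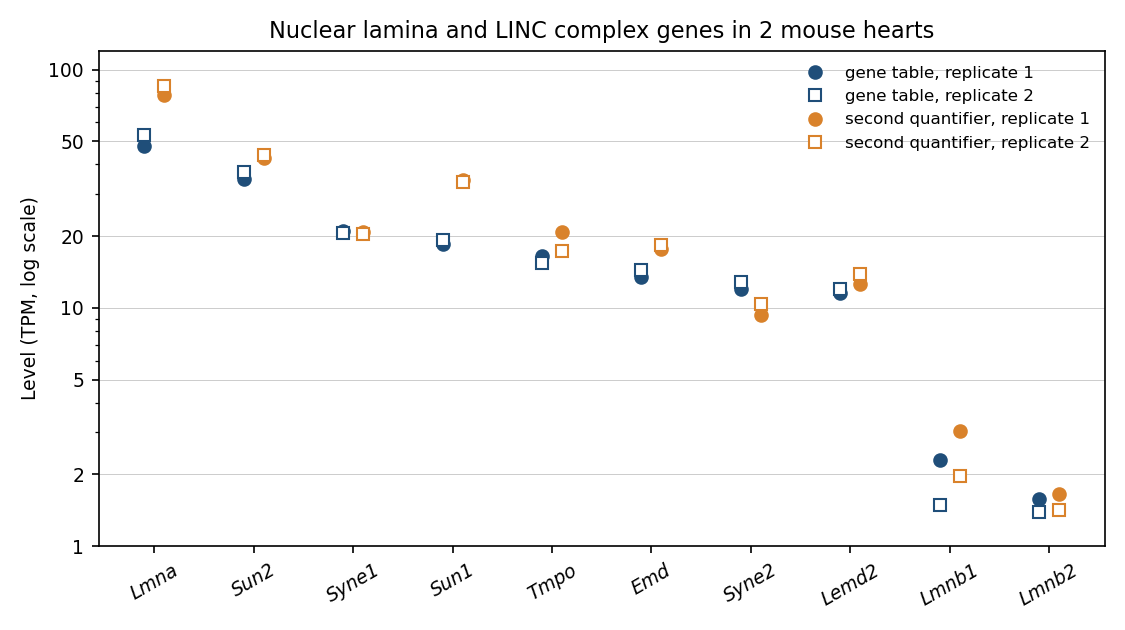
Level in TPM (log axis) of the 10 genes, ordered by their mean in the gene table, with filled points for replicate 1 and open squares for replicate 2. Lmna sits highest at 47.9 and 53.0 TPM in the gene table, the B-type lamins lie below 2.5 TPM there, and Lmna and Sun1 show the widest gap between the quantifications.

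Lmna (ENSMUSG00000028063.15; mm10, chr3:88480147-88509956, minus strand) encodes lamins A and C, the A-type lamins of differentiated cells. It stood at 47.9 TPM in replicate 1 and 53.0 TPM in replicate 2, from 3390 and 4009 estimated counts. Of the detected protein-coding genes, 90.0% had a lower mean. Lmnb1 (ENSMUSG00000024590.8, on mouse chromosome 18) and Lmnb2 (ENSMUSG00000062075.13; chr10:80901203-80918245, minus strand) encode the B-type lamins, which keep their lipid anchor for life. Lmnb1 stood at 2.29 and 1.49 TPM and Lmnb2 at 1.58 and 1.39 TPM, above 9.09% and 4.33% of detected protein-coding genes. Neither B-type lamin came near Lmna in either library.

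Lmna therefore held most of the lamin RNA in both hearts, at 92.5% and 94.8% of lamin TPM (93.7 ± 1.64%). It exceeded Lmnb1 by 20.9-fold and 35.5-fold, and Lmnb2 by 30.3-fold and 38.1-fold. These ratios describe whole heart tissue, in which fewer cells that make a lamin and less of its RNA per cell cannot be told apart. The order of Lmnb1 and Lmnb2 was not settled: Lmnb1 was 1.45-fold and 1.07-fold higher in TPM, but in estimated counts, which are not per length, both libraries put Lmnb2 ahead, with 159 in each against 153 and 144 for Lmnb1. The second quantification had Lmnb1 higher with no overlap, at 3.03 and 1.97 TPM against 1.65 and 1.42 TPM for Lmnb2.

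The lamin A and lamin C messages share 568 codons and then part: lamin C has 6 codons of its own before the stop and lamin A has 97. The coding stretches at that point are shown because the shares below depend on telling these messages apart (GENCODE M21 transcripts, 5′ to 3′, sense to the gene, minus strand of mm10). Only the first of lamin A's own bases are printed: Lmna-201 runs to 3156 bases in 12 exons and Lmna-203 to 2021 bases in 10 exons. Capitals mark bases not shared. Lamin C reads on from its exon into what is intron for lamin A, at chr3:88483297-88483347, and lamin A crosses a splice junction between chr3:88482583-88483347.
Lmna-203, lamin C: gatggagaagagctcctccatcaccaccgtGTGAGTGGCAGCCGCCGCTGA
Lmna-201, lamin A: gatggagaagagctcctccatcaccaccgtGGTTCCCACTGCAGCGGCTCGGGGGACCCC

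The lamin C message was the more abundant in both hearts. Lmna-203, the full lamin C transcript of 574 codons, stood at 30.1 and 34.9 TPM, and Lmna-201, the lamin A transcript of 665 codons, at 14.9 and 13.0 TPM. The ranges of these 2 transcripts did not overlap. Transcripts with the lamin C stop exceeded lamin A by 2.14-fold and 2.79-fold (log2 ratio 1.29 ± 0.27), and the second quantification gave 2.18-fold and 2.68-fold. Lmna-203 and Lmna-201 together held 92.2 ± 2.52% of Lmna TPM in the first transcript table. In the second they held 48.8 ± 0.370%, because Lmna-206, an annotated fragment of 117 codons with no stop, took 32.9 ± 0.0899% there against 0.926 ± 0.719% in the first. Lmna-202, which has the lamin C stop behind an internal start codon, took 16.3 ± 1.89% in the second and 2.94 ± 0.800% in the first. With Lmna-203 alone, the ratio of lamin C to lamin A in the second quantification was 1.58 ± 0.345-fold, against 2.36 ± 0.470-fold in the first.

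Lamin A and the B-type lamins end in a CaaX box, 4 codons whose cysteine receives a farnesyl group. Lamin C has no such box, and lamin A loses it again when Zmpste24 cuts prelamin A. The last coding bases of Lmna-201 (between chr3:88482074-88482366) and of Lmnb2-201 (between chr10:80902859-80903217), both on the minus strand, show the box in capitals before the stop, and both boxes open with the same codon.
Lmna-201, prelamin A end: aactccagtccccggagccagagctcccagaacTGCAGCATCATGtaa
Lmnb2-201, lamin B2 end: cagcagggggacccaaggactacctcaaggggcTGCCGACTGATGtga

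The genes of that maturation were all expressed: 5 of 5 reached 1 TPM. Fnta and Fntb, the subunits of farnesyltransferase, stood at 29.6 ± 0.120 and 5.19 ± 0.509 TPM. Zmpste24, the protease that cuts prelamin A, stood at 9.48 ± 0.163 TPM. Rce1, an endoprotease for CaaX ends, stood at 2.81 ± 0.0990 TPM and Icmt, the methyltransferase that follows it, at 10.8 ± 0.0212 TPM. The group's median was 9.48 ± 0.163 TPM, close to the 8.73 TPM of detected protein-coding genes.

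The B-type lamins rest on few counts, and their transcripts were less settled than their sums. Lmnb1-201, the full transcript of 588 codons, stood at 1.67 and 1.49 TPM. Most of the gap between libraries in the gene's total lay in Lmnb1-202, a transcript that retains an intron, which held 0.610 TPM (26.8% of the gene) in replicate 1 from 10.7 counts and 0 in replicate 2. The authors' deposited bounds for it were 0.0989 to 1.30 TPM in replicate 1 and reached 0.541 TPM in replicate 2, so these bounds overlap. Lmnb2 went to Lmnb2-201 (615 codons) in the first table, at 94.3% and 94.2%, whereas the second gave 100% and 85.6% to Lmnb2-204 (596 codons), which differs in its start codon. The noncoding Lmnb2-203 held 5.74 ± 0.0162% in the first table and 0 in the second.

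Tmpo (ENSMUSG00000019961.17; chr10:91147571-91181315, minus strand) encodes the lamina-associated polypeptides LAP2, some free in the nucleoplasm and some in the inner membrane. It stood at 16.5 TPM in replicate 1 and 15.4 TPM in replicate 2. Emd (ENSMUSG00000001964.14; chrX:74254687-74261548, plus strand), the gene of emerin, stood at 13.5 and 14.4 TPM. Lemd2 (ENSMUSG00000044857.8; chr17:27189600-27204469, minus strand), an inner membrane protein needed to reseal the nuclear envelope after division, stood at 11.5 and 12.1 TPM. The 3 LEM genes thus lay within a narrow band, with no overlap of library ranges between them in the gene table. In the second quantification the ranges of Tmpo (17.4 to 20.9 TPM) and Emd (17.6 to 18.3 TPM) overlapped.

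The Tmpo messages share their first 562 coding bases and then go either to the alpha end, which has no membrane span and binds A-type lamins in the nucleoplasm, or to the end of the membrane forms. The parting point is shown because the shares below depend on it (GENCODE M21, minus strand of mm10). Capitals mark the bases after it, between chr10:91163332-91164072 for Tmpo-201 and between chr10:91158816-91164072 for Tmpo-202.
Tmpo-201, alpha form: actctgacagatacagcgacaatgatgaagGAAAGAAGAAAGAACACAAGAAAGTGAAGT
Tmpo-202, a membrane form: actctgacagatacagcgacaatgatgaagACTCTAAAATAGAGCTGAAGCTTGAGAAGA

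The alpha form Tmpo-201 (693 codons) held 24.0% and 24.4% of Tmpo TPM. The 4 transcripts with the membrane-form stop held 47.2% and 55.5%, so they outweighed the alpha form in both libraries. Among them Tmpo-202 (452 codons) held 25.6 ± 1.13%, Tmpo-203 (412 codons) 14.4 ± 0.757% and Tmpo-204 (380 codons) 6.70 ± 1.003%. Tmpo-205 (343 codons) was uneven, with 1.09% in replicate 1 and 8.07% in replicate 2. The second quantification gave 21.4 ± 2.51% to the alpha form and 54.4 ± 11.5% to the membrane forms. Noncoding transcripts made up 28.7% and 20.1% of Tmpo, among them Tmpo-210 with 13.8% and 8.85%.

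Emd and Lemd2 were each carried by 1 transcript. Emd-201, of 259 codons, held 94.6% and 96.9% of Emd TPM in the first table and 81.4 ± 5.61% in the second, where Emd-206, a transcript annotated for nonsense-mediated decay, took 13.4 ± 5.24%. Lemd2-201, of 511 codons, held 83.5% and 83.6%, and most of the rest lay on transcripts that retain introns, such as Lemd2-207 with 6.73 ± 1.90%. Transcripts not annotated as protein-coding held 16.5 ± 0.0633% of Lemd2, 24.4 ± 6.08% of Tmpo and 31.6 ± 2.89% of Syne2. The median was 6.33% over detected protein-coding genes and 5.25% over the 10 genes. These shares include transcripts annotated for nonsense-mediated decay, which can have an annotated coding sequence. In Syne2 most of the share, 20.9 ± 0.115% of the gene, was such a transcript, Syne2-206, with 732 codons. Emd is the gene whose sequence was most shared: 18.9% of its 31-base words occur in other genes, most of them in the overlapping pseudogene Gm14686 on the same strand, which was listed at 0 and 0.820 TPM.

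Sun2 (ENSMUSG00000042524.14; chr15:79724070-79742536, minus strand) and Sun1 (ENSMUSG00000036817.14; chr5:139200637-139249840, plus strand) encode the SUN proteins of somatic cells, which assemble into trimers that each hold nesprin ends. Sun2 stood at 34.8 TPM in replicate 1 and 37.1 TPM in replicate 2, above 85.4% of detected protein-coding genes. Sun1 stood at 18.6 and 19.3 TPM, above 72.6%. Sun2 was higher in both libraries, by 1.87-fold and 1.92-fold (log2 ratio 0.93 ± 0.03). The size of this ratio depended on the quantification. It was 1.24-fold and 1.30-fold in the second, where transcripts with an incompletely annotated coding end held 53.7 ± 0.761% of Sun1 against 24.7 ± 4.26% in the first. Without such transcripts the second gave 2.28-fold and 2.47-fold. Sun2 exceeded Sun1 in each of these settings.

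Sun1 was spread over many transcripts and Sun2 over few. Of the 20 annotated Sun1 transcripts, 5 have the start and stop codon of the longest form, and together these held 70.5% and 67.6% of Sun1 TPM. Sun1-205 (790 codons) led with 33.8% and 34.5%, ahead of Sun1-201 (913 codons) with 14.9 ± 0.331%, Sun1-202 (849 codons) with 12.1 ± 0.980% and Sun1-206 (876 codons) with 7.51 ± 2.39%. The incomplete Sun1-211 and Sun1-217 held 11.6 ± 1.24% and 8.05 ± 6.44%. In the second table the largest share went to the incomplete Sun1-212, with 29.4% in replicate 1 and 14.3% in replicate 2, and Sun1-219 and Sun1-210 took 14.5 ± 5.87% and 5.15 ± 7.28%. For Sun2, Sun2-201 (731 codons) held 52.8% and 47.4% and Sun2-203 (729 codons) 35.9% and 40.4%, while the incomplete Sun2-204 held 5.17 ± 0.853%.

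Syne1 (ENSMUSG00000096054.3; chr10:5020917-5551482, minus strand) and Syne2 (ENSMUSG00000063450.14; chr12:75818134-76110926, plus strand) encode nesprin-1 and nesprin-2. The full-length nesprins are giant rods of spectrin repeats with an actin-binding region at the N-terminal end and the KASH domain at the C-terminal end, and internal promoters give shorter forms. Syne1 stood at 21.1 TPM in replicate 1 and 20.5 TPM in replicate 2, and Syne2 at 12.0 and 12.9 TPM. Syne1 was higher in both libraries, by 1.76-fold and 1.60-fold (log2 ratio 0.75 ± 0.10), and by 2.22-fold and 1.97-fold in the second quantification. It also had the most counts of the 10 genes, 7013 and 8241, since its transcripts are long; Syne2 had 2909 and 3453.

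The ends of both nesprins are shown because the KASH end is what a SUN protein holds, and because the shares below count the transcripts that reach it. The stretches are the last 30 codons and the stop (GENCODE M21; chr10:5022007-5022099 on the minus strand for Syne1, chr12:76109952-76110044 on the plus strand for Syne2). Capitals mark the last 4 codons before the stop, which in the protein fit into the SUN domain. Before the stop 69 of 90 bases are identical (76.7%).
Syne1-205, KASH end: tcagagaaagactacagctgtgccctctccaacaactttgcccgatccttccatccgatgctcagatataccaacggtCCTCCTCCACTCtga
Syne2-210, KASH end: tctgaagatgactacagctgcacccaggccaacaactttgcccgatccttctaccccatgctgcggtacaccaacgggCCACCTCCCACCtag

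The Syne1 transcript with the highest TPM in both quantifications was a short form that keeps the KASH end and lacks the actin-binding end. Syne1-202 starts 482 kb into a gene of 531 kb, has 17 exons and 949 codons, and stood at 11.6 and 11.2 TPM, or 55.1% and 54.5% of the gene in the first table and 46.4% and 44.6% in the second. Short forms of this structure are known from striated muscle as nesprin-1 alpha, which gathers microtubule-organising proteins at the nuclear surface. Syne1-205, the full-length transcript of 146 exons and 8799 codons, stood at 6.31 and 6.73 TPM, or 29.9% and 32.8%. The short form was higher than the full-length one in both libraries, and their ranges did not overlap. Of its 2847 coding bases, 2755 also lie in the full-length form, so this split rests on how shared reads were assigned. Both quantifications used the same libraries. The effect of that assignment, or of uneven coverage along the gene, was not tested. Syne1-206, which has neither annotated end, held 10.9 ± 0.707%.

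**Figure D2:**
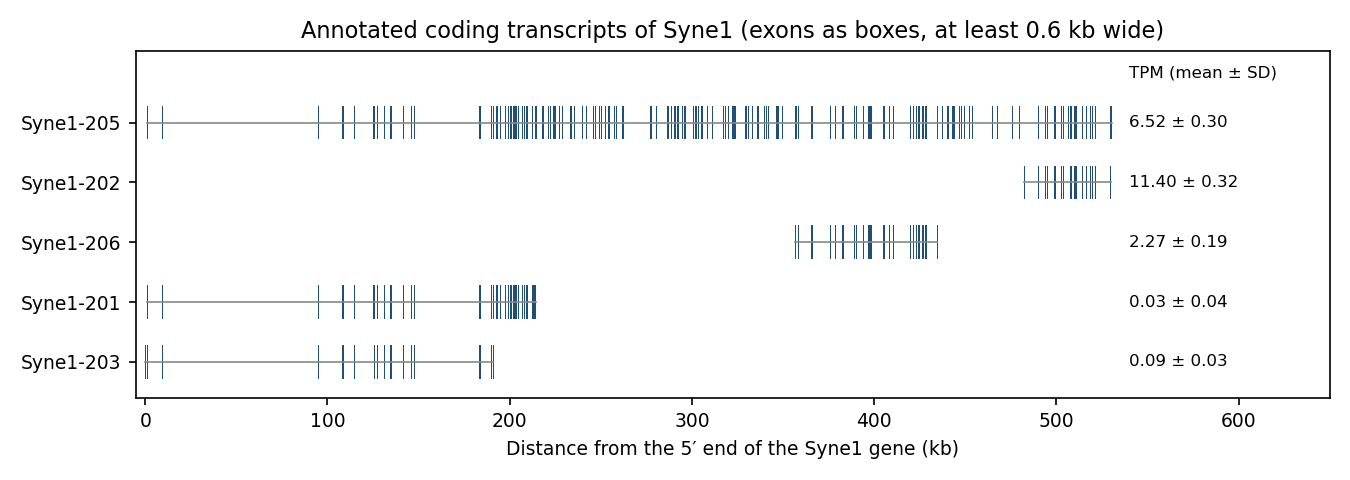
The 5 annotated coding transcripts of Syne1, drawn 5′ to 3′ with distance from the start of the gene in kb, exons as boxes (widened to at least 0.6 kb) and the mean TPM ± SD (n = 2) at the right. Syne1-202 covers only the last part of the gene, from 482 kb, and has the highest level, 11.4 ± 0.318 TPM.

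The start of the short form is shown because its first coding bases are absent from the full-length message. Of its 2847 coding bases, 92 are absent from Syne1-205, and they are the first ones. Capitals mark them in the spliced stretch between chr10:5061524-5068898 (minus strand), and the lower-case bases belong to both.
Syne1-202, first coding bases: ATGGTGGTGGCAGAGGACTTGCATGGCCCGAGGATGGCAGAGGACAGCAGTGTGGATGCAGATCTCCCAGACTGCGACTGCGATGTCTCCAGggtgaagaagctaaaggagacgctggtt

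The short and the full-length form have start sites of their own, and RefSeq lists 3 promoters for Syne1 (GRCm38.p6, minus strand). One ends at the first base of the short form Syne1-202. Another ends at the first base of Syne1-201 (chr10:5550692), an N-terminal transcript, with the annotated start of the full-length Syne1-205 just after it (chr10:5550678). The 250 bases before both of these starts are printed, as the promoters nearest to the forms compared. The third, at chr10:5488315-5488564, lies at no annotated Syne1 start and is not printed. Capitals mark the E-box letters CANNTG, searched on both strands.
Short form, chr10:5069064-5069313: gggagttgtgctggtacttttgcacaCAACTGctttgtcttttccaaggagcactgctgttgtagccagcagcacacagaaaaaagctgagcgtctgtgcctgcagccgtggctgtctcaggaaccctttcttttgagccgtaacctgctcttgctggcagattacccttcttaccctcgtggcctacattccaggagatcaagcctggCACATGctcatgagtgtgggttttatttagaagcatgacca
N-terminal start, chr10:5550693-5550942: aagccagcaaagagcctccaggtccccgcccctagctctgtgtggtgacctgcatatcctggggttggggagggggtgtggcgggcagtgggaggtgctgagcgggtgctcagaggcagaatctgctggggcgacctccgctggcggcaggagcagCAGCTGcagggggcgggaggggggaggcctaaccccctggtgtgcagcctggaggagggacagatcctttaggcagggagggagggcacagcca

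The promoter of the short form had 50.8% G and C and that at the N-terminal start 68%, with a median of 52.4% over 32851 promoters of this length. The short-form promoter held 2 matches to CANNTG and 1 to CATTCC, a motif of TEAD factors, and none to GGGCGG, a motif of SP factors. The N-terminal promoter held 1 match to CANNTG, 2 to GGGCGG and none to CATTCC. Neither held a match to TATAAA, the TATA box, or to AGATAA. The third promoter had 38.8% G and C and held 1 match to CANNTG and 1 to TATAAA, and none to the other 3 motifs. Over all promoters, searched on both strands, 66.2% held CANNTG, 32.7% held GGGCGG, 12.6% held CATTCC, 12.4% held TATAAA and 9.99% held AGATAA. The matches in the printed promoters do not overlap one another, and a match is a description only.

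Counting every coding transcript with the last stop codon, 85.0% and 87.2% of Syne1 TPM reached the KASH end. Transcripts with only the N-terminal end held 0.573 ± 0.329%. The second quantification gave the full-length form 34.9 ± 1.63% and the KASH end 80.4 ± 0.371%. By estimated counts, to which a long transcript contributes more fragments, the short form took 16.6 ± 0.872%. Its lead over the full-length form thus holds for TPM, which is corrected for transcript length, and not for counts.

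Syne2 was divided differently. Its full-length form Syne2-210 (115 exons, 6870 codons) stood at 3.52 and 3.62 TPM, which was 28.8 ± 0.922% of the gene and 43.9 ± 2.18% in the second quantification. Coding transcripts that reach the KASH end held 33.9% and 34.7% of Syne2 TPM, less than the 85.0% and 87.2% of Syne1 in the same libraries. The size of the Syne2 share depended on the quantification and on incompletely annotated transcripts. It was 46.2 ± 2.54% in the second table, against 80.4 ± 0.371% for Syne1. Without incomplete transcripts it was 73.0 ± 4.50% in the first table and 84.8 ± 4.10% in the second, all of it full length, against 97.1 ± 0.852% and 96.1 ± 0.985% for Syne1. Syne2 was below Syne1 in both libraries in each of these settings. Among coding transcripts no short form of Syne2 with the KASH end stood out: Syne2-208 held 5.03 ± 1.90%. Syne2-206, incomplete and annotated for nonsense-mediated decay, held 20.9 ± 0.115%. It starts 270 kb into a gene of 293 kb, with 17 exons in that last part. It was classed as not coding whatever its ends, so the KASH-end shares leave it out. Whether it reaches the KASH end was not tested. Syne2-212 with neither end held 13.1 ± 1.76%, Syne2-209 with the N-terminal end 12.3 ± 2.55% and Syne2-213 8.10 ± 1.52%. Syne2-217, with a retained intron, held 7.12 ± 1.17%. In the second table Syne2-209 was at 0 and Syne2-211, also with the N-terminal end, held 20.1 ± 0.848%. Incompletely annotated transcripts held 60.5 ± 3.70% of Syne2 in the first table, so its shares rest on fragments of the annotation. By estimated counts the KASH end took 84.5 ± 0.0355%, against 95.2 ± 0.777% for Syne1.

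Near the KASH end the annotation gives 2 full-length forms of Syne2, and the RNA of these hearts was assigned to 1 of them. The stretch that differs near this end is shown with the bases that are not shared in capitals (chr12:76108186-76108903, plus strand, spliced). The forms also differ elsewhere. This stretch begins at coding base 20311 of Syne2-201 and 20314 of Syne2-210, and the transcripts have 21690 and 21704 bases. Which difference the assignment rests on was not tested.
Syne2-201: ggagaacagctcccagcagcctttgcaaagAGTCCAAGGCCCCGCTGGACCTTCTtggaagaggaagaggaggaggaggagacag
Syne2-210: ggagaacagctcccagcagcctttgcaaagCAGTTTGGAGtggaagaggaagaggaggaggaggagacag

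Syne2-201 was listed at 0 TPM in both libraries in the first table and at 0.00187 ± 0.00236 TPM in the second. The authors' deposited upper bounds for it were 0.666 and 0.850 TPM, below the lower bounds of Syne2-210, which were 2.72 and 2.62 TPM. In replicate 2 the estimate of Syne2-210, 3.62 TPM, lay above its own upper bound of 3.57 TPM, so these bounds need not enclose the estimates.

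**Figure D3:**
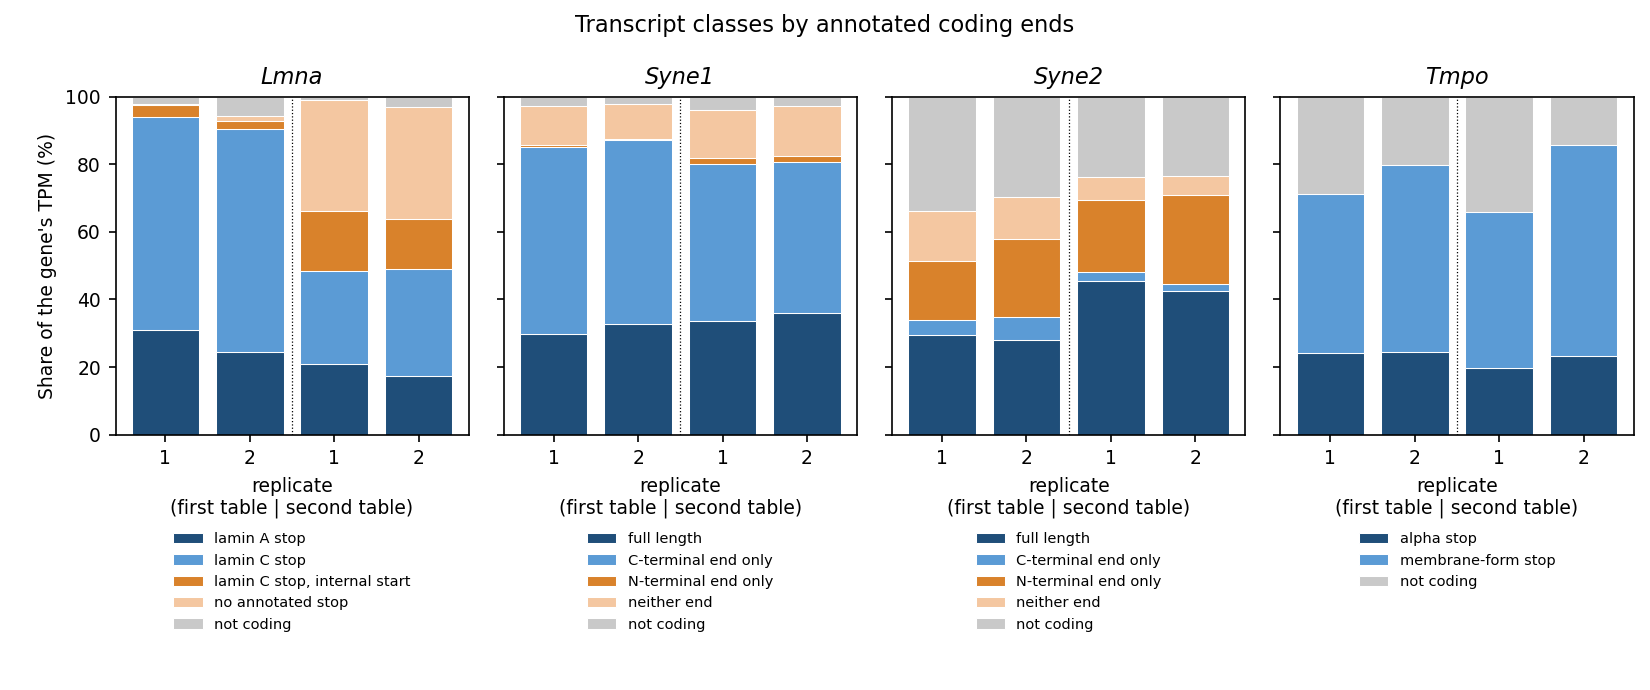
Share of each gene's TPM (percent, stacked to 100) by class of transcript for Lmna, Syne1, Syne2 and Tmpo, with replicates 1 and 2 of the first transcript table left of the dotted line and those of the second right of it. The class not coding includes transcripts annotated for nonsense-mediated decay. In the first table Syne1 is mostly RNA with the KASH end (the full-length and C-terminal classes, 85.0% and 87.2%), while in Syne2 those classes hold 33.9% and 34.7% there and 46.2 ± 2.54% in the second, and in Lmna the second table moves 32.9% to a transcript with no annotated stop.

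Set side by side, SUN messages outnumbered nesprin messages that carry the KASH end. Sun1 and Sun2 together stood at 53.4 and 56.3 TPM, and the KASH-end transcripts of Syne1 and Syne2 at 22.0 and 22.4 TPM. The ratio was 2.43 and 2.52 (2.47 ± 0.0627), and it was 3.66 ± 0.0377 in the second quantification. These SUN totals include noncoding and incomplete transcripts, whereas the nesprin totals count only coding transcripts with the KASH end. SUN transcripts were also limited to those with the start and stop codon of the lead transcript, a setting chosen after seeing the data. The ratio was then 2.06 ± 0.0142 in the first table and 2.42 ± 0.0561 in the second. Full-length nesprins alone came to 10.1 ± 0.368 TPM. These are ratios of RNA, and no protein was measured.

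The members' levels differed little between the libraries. Ratios of replicate 2 to replicate 1 were taken from estimated counts scaled by TMM, a normalization for library composition, for 12438 genes with a mean count of at least 50, and all 10 genes passed that filter. None of the 10 was 2-fold apart, against 0.571% of all genes tested, and none was 1.5-fold apart, against 2.08%. The median size of the log2 ratio was 0.03 over the 10 genes and 0.08 over all genes tested. These sets were not matched for counts, so the medians do not show that the 10 genes are unusually stable. With 1 library a mouse these ratios have no replicate check.

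The lowest ratios were those of the B-type lamins. Lmnb1 had 153 counts in replicate 1 and 144 in the deeper replicate 2, a log2 ratio of -0.32 with an exact counting interval at 95% of -0.66 to 0.02. Lmnb2 had 159 in each, a log2 ratio of -0.23 with an interval of -0.56 to 0.09. Both intervals include 0 and cover counting error only. The other 8 genes lay between -0.10 (Tmpo) and 0.07 (Emd), with Lmna and Sun2 at 0.01 and Syne1 at 0.00. Red cell and lymphocyte markers were also higher in replicate 1, by 3.17-fold and 2.85-fold in summed TPM, and their part in the ratios of the B-type lamins was not tested.

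The authors deposited estimates of the same libraries from a pair of quantifications, and Lmna and Sun1 were the genes on which these parted most. The second put Lmna at 78.2 and 85.3 TPM and Sun1 at 34.3 and 33.7 TPM, which was 1.62-fold and 1.80-fold above the gene table on the means. These were the 2 of 10 genes that lay at least 1.5-fold apart, against 15.7% of 11921 genes at 1 TPM in either direction and 11.2% upward. No member was 2-fold apart, against 5.82% in either direction and 1.98% upward. The median ratio of the second to the first was 1.20-fold over the 10 genes and 1.15-fold over all genes. Syne2 was the lowest, with 9.36 and 10.3 TPM in the second, 0.793-fold of the gene table.

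With transcripts of incomplete annotation left out of both tables, a setting chosen after seeing the data, Lmna was 1.10-fold apart, Sun1 1.11-fold and Syne2 1.04-fold, and 0 of 10 genes were 1.5-fold apart. The dominant transcript differed between the tables in 4 of the 10 genes, Lmna, Lmnb2, Sun1 and Tmpo, against 24.1% of 10066 detected protein-coding genes with more than 1 transcript. For Tmpo this was a near tie, since Tmpo-201 and Tmpo-202 stood at 4.06 and 4.05 TPM in the second table. For Syne1, Syne2, Sun2, Emd, Lemd2 and Lmnb1 the same transcript led in both.

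**Figure D4:**
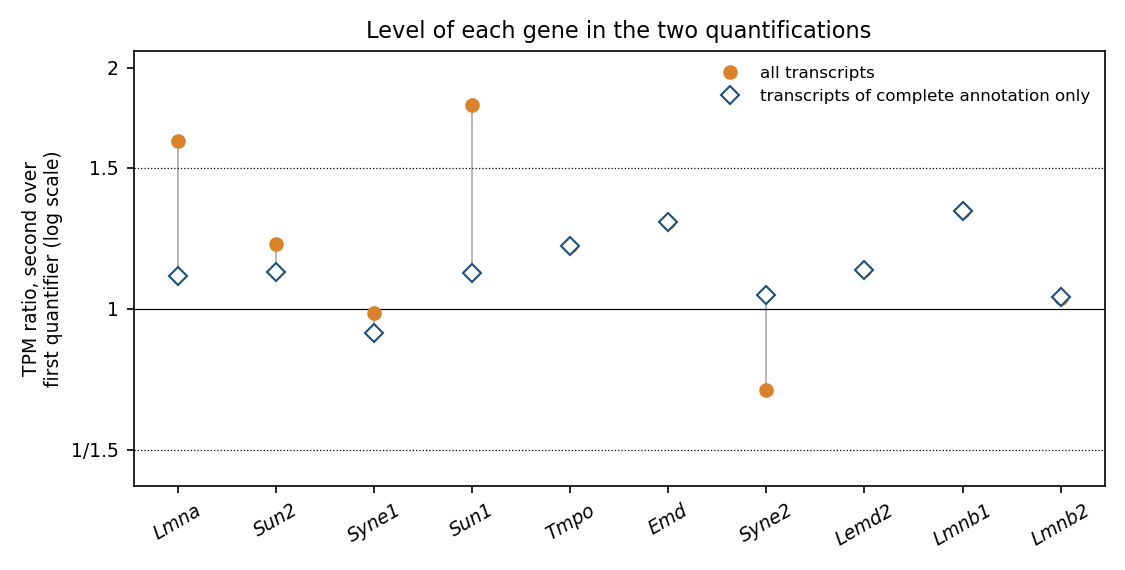
Ratio of the second quantification's TPM to the first for each gene (log axis, mean over 2 libraries), with filled points for all transcripts, open diamonds without transcripts of incomplete annotation, and dotted lines at 1.5-fold either way. Lmna and Sun1 lie above the upper line with all transcripts, at 1.62 and 1.80, and at 1.10 and 1.11 without the incomplete ones.

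Of the other SUN and KASH genes, most of which act in testis, lymphocytes or epithelia, 1 of 7 reached 1 TPM in both libraries. This was Syne3, the gene of nesprin-3, which binds the cytolinker plectin, at 3.53 ± 0.375 TPM. Sun3 (0.680 ± 0.156 TPM), Lrmp (0.655 ± 0.346), Syne4 (0.135 ± 0.0495) and 1 other gene stood below 1 TPM, and Sun5 and Ccdc155 were listed at 0 in both libraries. The median of the group was 0.440 ± 0.0849 TPM, against 27.4 ± 1.03 for Sun1 and Sun2 and 16.6 ± 0.110 for Syne1 and Syne2. Syne1 and Syne2 thus made up most of the nesprin RNA measured, with 33.1 and 33.4 TPM together.

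Other proteins of the inner membrane and lamina were mostly present: 13 of 14 reached 1 TPM, with a median of 12.5 ± 0.279. The highest was Tmem38a at 179 ± 10.6 TPM, a potassium channel of the sarcoplasmic reticulum and nuclear membrane of muscle. Mlip, a muscle protein that binds lamins A and C, stood at 55.1 ± 2.29 TPM, and Banf1, the BAF protein that LEM domains bind, at 48.3 ± 3.69 TPM. The library range of Banf1, 45.7 to 50.9 TPM, overlapped that of Lmna. The lowest were Nrm, the gene of nurim, at 0.685 ± 0.00707 TPM, Nemp1 at 1.36 ± 0.0707 TPM and Tor1a, the ATPase torsinA of the perinuclear space, at 4.09 ± 0.120 TPM.

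The partners of nesprins at the nuclear surface all reached 1 TPM, 7 of 7, with a median of 22.0 ± 0.403. Kif5b, the kinesin heavy chain, stood at 47.1 ± 1.01 TPM and its light chain Klc1 at 32.2 ± 0.0566 TPM. Akap6, the scaffold mAKAP that nesprin-1 alpha holds at the nuclear envelope of heart muscle, stood at 37.6 ± 1.04 TPM. Of the centrosomal proteins Pcm1 stood at 19.0 ± 0.933 TPM and Akap9 at 16.7 ± 0.976 TPM, and Fhod1, a formin that links nesprin-2 to actin, was the lowest at 2.86 ± 0.311 TPM. Both Akap6 and Kif5b lay above Syne1 in each library.

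The chromatin partners of the lamina were present as well, 7 of 7, with a median of 15.4 ± 0.962 TPM. The heterochromatin proteins Cbx3, Cbx5 and Cbx1 stood at 23.1 ± 1.92, 21.1 ± 1.10 and 13.3 ± 0.00707 TPM. The histone methyltransferases Ehmt2 and Ehmt1 stood at 16.5 ± 0.255 and 12.3 ± 0.651 TPM, and Rb1, whose protein binds lamin A and LAP2 alpha, at 7.22 ± 0.368 TPM. Nuclear pore genes were lower, with 16 of 18 at 1 TPM and a median of 5.09 ± 0.435. Tpr, of the nuclear basket, led at 47.6 ± 0.184 TPM, ahead of Nup153 at 12.8 ± 1.17 and Nup98 at 12.6 ± 0.0495. Nup107 stood at 2.74 ± 0.0919 TPM and Nup210 at 1.12 ± 0.247. Nup58, found under an older symbol, was listed at 0 and 0.02 TPM. Whether reads of Nup58 were assigned to another entry was not tested. No gene of these lists that passed the count filter was 2-fold apart between the libraries.

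**Figure D5:**
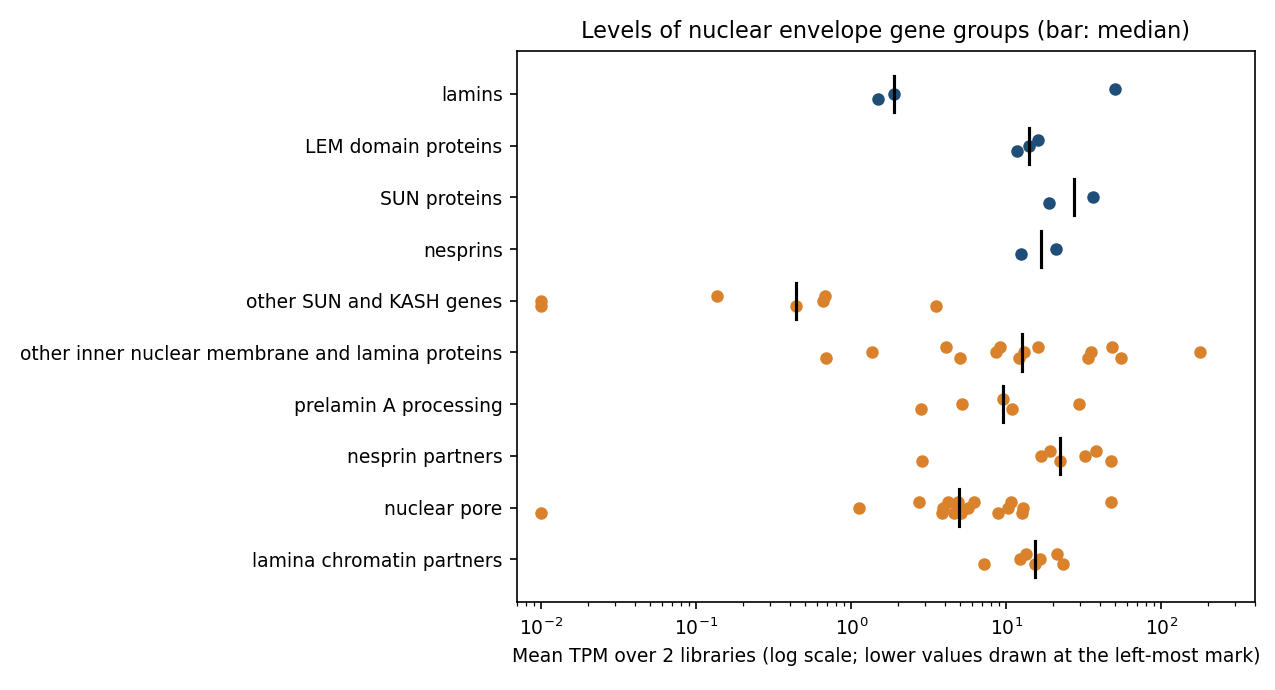
Mean TPM over the 2 libraries (log axis) of each gene in 10 groups of nuclear envelope genes, with the 10 genes of the lamina and LINC complex in blue, the other lists in orange and a bar at each median. The other SUN and KASH genes lie lowest, with a median of 0.440 TPM, and Lmna at 50.4 TPM stands apart from both B-type lamins. The 3 genes at or below 0.01 TPM are drawn at the left-most mark.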

How the data were processed

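The authors quantified each library against mm10 and GENCODE M21, once from alignments (a gene table and a transcript table) and once from reads (a second transcript table), as the descriptions deposited with the files state. Aligner, quantifiers and the strand setting of the counting: not given in the sources used here. Per the file headers, the tables hold expected counts (estimated counts in the second transcript table), TPM, FPKM and, for transcripts, the percent of the gene's level as deposited by the authors. The TPM bounds are a signal column deposited by the authors with no level stated in the headers.

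Gene levels came from the gene table and transcript shares from the transcript tables, as mean ± SD over 2 libraries. Expected counts were rounded to whole numbers. TMM scaling came from edgeR 4.0.16 under R 4.3.3 (log2 ratio of library sizes 0.23), as did a biological coefficient of variation of 6.62% over 15155 genes. Ratios between libraries used a prior count of 0.5 and a mean count of at least 50, and intervals are exact Clopper-Pearson at 95%. In simulated counts of 12436 genes, 96 of 96 genes changed 4-fold were called at 2-fold, 2 of 98 changed 1.5-fold were, and 0 of 12242 unchanged ones. These counts were drawn with the same fixed coefficient of variation for all genes and no difference in tissue make-up. They describe that setting only and give no rate of false calls for the real libraries. Tables were handled with pandas 2.3.3 and numpy 2.4.6 (Python 3.11.15), and intervals came from scipy 1.17.1.

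Protein-coding transcripts were classed by their annotated start and stop codons only. All others, those annotated for nonsense-mediated decay included, were classed as not coding. A transcript was called incomplete where GENCODE M21 marks its start or end as not found. Shared sequence was counted as 31-base words of a gene's transcripts that occur in another gene. Overlapping genes on either strand may share reads; apart from Gm14686 (above) and Gm10097, at 0.110 TPM within Syne1, those overlapping the 10 genes were at 0. Promoters are those of RefSeq GRCm38.p6, and coding stretches those of GENCODE M21. Spike-ins and 26248 numeric entries were left out of gene totals, and all such other entries held 0.547% and 0.502% of counts. Nup58 was found under its older symbol Nupl1.

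The rule named all 10 genes, the 3 highest and 3 lowest of each other list with any at 0, and transcripts with at least 5% of a gene in either table. The 10 genes, lists and markers were chosen with earlier results of these data known. No test was possible between groups, since there is 1 group, and a likeness of pattern across conditions could not be measured. Nothing in the labels says more of how the replicates were made, so the spread may be technical. Alternatives were the second transcript table, the posterior mean TPM, FPKM, TPM of nuclear protein-coding genes, counts not per length, other thresholds, a pseudocount, other scalings (DESeq2 1.42.0 size factors, total counts, spike-ins), protein-coding transcripts only, and leaving out each library.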

Additional observations from a re-analysis of the deposited data

How the results depend on the processing

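All 10 genes stayed at 1 TPM in both libraries under every quantity tried, and 8 reached 5 TPM. No gene was 2-fold apart between libraries under any scaling, prior count, filter or table tried, and none was 1.5-fold apart with TMM. DESeq2 size factors moved the log2 ratios by 0.01, total counts by 0.07 and spike-ins by 0.17. The Lmna share of lamin TPM (93.7%) ranged from 92.5% to 94.8% when a library was left out and was 90.5% with a pseudocount of 1 TPM.

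The log2 ratio of Sun2 to Sun1 (0.93; 0.91 to 0.94 leaving out a library) was 0.35 in the second table, 0.84 in posterior mean TPM, 1.30 in expected counts, 0.89 with a pseudocount of 1 TPM, 0.96 over protein-coding transcripts and 1.25 in the second table without incomplete transcripts. That of Syne1 to Syne2 (0.75; 0.67 to 0.82) was 1.06, 0.64, 1.26, 0.70, 1.26 and 1.76 under the same settings. Neither ratio changed direction. The log2 ratio of Lmnb1 to Lmnb2 turned from 0.32 to -0.10 in expected counts, which are not per length.

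The log2 ratio of lamin C to lamin A (1.29; 1.10 to 1.48) was 0.60 by counts. The short form's share of Syne1 (54.8%; 54.5% to 55.1%) was 45.5% in the second table, 56.1% among protein-coding transcripts, 16.6% by counts and 61.8% in the first table without incomplete transcripts. The 2 genes at least 1.5-fold apart between quantifications became 0 at 2-fold and 0 without incomplete transcripts; the count was 2 without either library. Leaving out incomplete transcripts, or SUN transcripts without the start and stop codon of the lead transcript, was chosen after seeing the data. Of the further values for single genes, forms and the SUN to nesprin ratio, 108 moved by less than a set spread, 82 by more and 1 reversed. That spread was the SD of the 2 libraries. For log2 ratios between libraries it was the counting interval's reach from its middle (0.07 for Lmna). Sign changes of those ratios were not counted as reversed (Tmpo, -0.10 with TMM and 0.07 with spike-ins). The 108 include values with a library left out. These show no stability, since dropping 1 of 2 libraries always moves a mean by less than their SD. The cause of the moves was not tested.

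No paired analysis was possible because the study has 1 group. With 2 libraries an SD has 1 degree of freedom, and the B-type lamins, at 144 to 159 counts, are the genes whose precision depth limits most.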
